A study of Mus musculus with 12 samples.

Results

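Oncostatin M signals through the JAK-STAT pathway, and its receptor, kinases, transcription factors and inhibitors were followed here in mouse hair follicle stem cells (HFSCs). The genes described are 10 of the 21942 genes in the series, chosen by name: the receptor chains Osmr, Il6st and Lifr, the kinases Jak1 and Jak2, the transcription factors Stat3, Stat5a and Stat5b, and the inhibitors Socs2 and Socs3. All 10 were found in both expression tables and all 10 passed the filter on low values in both. A further 76 genes of the same signalling system, listed by role, are described after them.

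RNA-seq was made from 12 libraries of HFSCs sorted from back skin of C57BL/6J mice, in 4 groups of 3. The sort kept cells with CD34, EpCAM and a high level of α6-integrin and left out those with Sca1. The anagen libraries (growing follicles, activated HFSCs or aHFSCs) came from wildtype mice of postnatal days 28 to 30, and the telogen libraries (resting follicles, quiescent HFSCs or qHFSCs) from wildtype mice of postnatal days 50 to 52, so hair cycle phase and age cannot be told apart. The Eed iKO libraries came from 70-day-old mice labelled Eed -/-, in which RU-486 had been applied to the skin once a day for 7 days from day 50 to release a K15-CrePGR recombinase and delete floxed Eed, a subunit of the repressive complex PRC2. The controls were 70-day-old mice labelled wildtype, given the ethanol vehicle, and the sources used here do not say whether they carried the Cre or the floxed alleles. RU-486 was given to the Eed iKO mice and not to the controls, so the drug and the deletion cannot be told apart. K15-CrePGR acts in the bulge and is induced, so cells in which it did not act would be sorted with the others. The 2 tables were normalized separately and are tested only within themselves. Which animals went into which hair cycle library is not given in the sources used here, so p-values measure the spread between these libraries.

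Oncostatin M is a cytokine of the interleukin 6 family. It binds OSMR, which pairs with the shared chain gp130 (Il6st), and the receptor-bound JAK kinases then phosphorylate STAT proteins, which enter the nucleus and switch on target genes. Among those targets are the SOCS genes, whose products shut the receptor and the kinases off again, so that SOCS transcripts are commonly read as a trace of recent signalling. In the hair follicle, oncostatin M from macrophages in the dermis has been linked to the quiescence of HFSCs, and JAK inhibitors applied to resting skin are known to bring follicles into anagen.

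A pair of sequences are given as a description. The first is the stretch upstream of Socs3, a textbook target of STAT3, chosen after its rise in anagen was seen. It holds 250 bases before the RefSeq start on the minus strand of chr11:117969367-117969616 (GRCm38.p6, RefSeq). Capitals mark the match to TTCNNNGAA, the palindrome that STAT dimers bind.
Socs3 upstream: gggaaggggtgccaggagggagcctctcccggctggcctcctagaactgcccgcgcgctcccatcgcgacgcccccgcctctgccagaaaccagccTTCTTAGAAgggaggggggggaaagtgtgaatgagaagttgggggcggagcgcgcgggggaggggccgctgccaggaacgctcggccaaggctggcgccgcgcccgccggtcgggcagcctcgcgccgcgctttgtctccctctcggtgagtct
The match, at bases 117969512 to 117969520 of chromosome 11, began 154 bases before the RefSeq start on the minus strand. GENCODE places the start of the protein-coding transcript further downstream, at base 117969186. Of all 32851 RefSeq mouse promoter windows of the same length, 7.02% held TTCNNNGAA, which reads the same on both strands. The windows of 8 other members (Osmr, Il6st, Lifr, Jak1, Jak2, Stat3, Stat5a and Stat5b) held neither it nor the form with a further base in the middle, which 5.85% of all windows held, and Socs2 was not among the genes with a promoter row. A match is a description of the letters in this window, and no binding was measured. Its part in the Socs3 values was not tested.

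The second is the coding stretch that the neighbouring genes Stat5a and Stat5b share base for base, shown because reads from it fit both genes. It runs from coding base 571 to coding base 894 in each, 324 bases of 2391 in Stat5a and of 2358 in Stat5b (GENCODE, GRCm38), and its first 150 bases, to coding base 720, are given. No letter is in capitals because all bases of the run are shared.
Stat5a and Stat5b shared run: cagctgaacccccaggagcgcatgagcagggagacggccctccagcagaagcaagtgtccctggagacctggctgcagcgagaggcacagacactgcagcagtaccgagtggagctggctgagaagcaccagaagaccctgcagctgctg
Of the stretches of 31 bases in Stat5a transcripts, 836 (20.2%) also occur in Stat5b, where they make up 15.2%. No other pair of members shared a stretch of that length when each transcript was read on its sense strand only. Values of Stat5a and Stat5b are therefore uncertain in how reads were split between them. On GRCm38, Stat5b (chromosome 11, 100780731 to 100850724, minus strand), Stat5a (100859351 to 100885169, plus strand) and Stat3 (100885098 to 100939540, minus strand) lie side by side, with 8626 bases between the first pair and an overlap of 72 exon bases between Stat5a and Stat3. The library kit did not mark strand, so reads from that overlap could fit Stat5a or Stat3.

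The other members lie on 6 chromosomes. Osmr (15, 6813577 to 6874969, minus strand) and Lifr (15, 7090614 to 7197489, plus strand) are near neighbours, while Il6st is on 13 (112464070 to 112510086, plus strand). Jak1 is on 4 (101152367 to 101265282, minus strand) and Jak2 on 19 (29251828 to 29313080, plus strand). Socs2 is on 10 (95385362 to 95417180, minus strand) and Socs3 on 11 (117966079 to 117970047, minus strand).

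The labels were checked first. Mki67, a marker of cycling cells, was 34-fold higher in anagen (14954, 12975 and 10404) than in telogen (421, 431 and 276; log2 fold change 5.10, limma adjusted p = 1.95e-06). The bulge markers Cd34, Itga6 and Krt15 were present in every library, with Cd34 lower (log2 fold change -1.21, limma adjusted p = 0.00382) and Itga6 higher (0.97, adjusted p = 0.0144) in anagen. Eed itself read 933, 1361 and 1001 normalized counts in the libraries labelled Eed iKO and 1084, 1249 and 950.2 in the controls, so the gene-level count did not separate the groups. It covers all exons of the gene, and how many of them the deletion removes is not given in the sources used here, so this count is no check of the deletion. Mki67 stood at 6125, 6301 and 609 in the libraries labelled Eed iKO and at 639, 2543 and 928 in the controls, with Eed iKO 3 below every control. The recovered depth of this table was 33269583 to 57063586 reads per library, and the depth behind the hair cycle table is unknown.

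Between hair cycle phases none of the receptor chains, kinases and STATs passed the test, and the 2 inhibitors moved in opposite directions. Socs2 was 5.62-fold lower in anagen than in telogen, and Socs3 was 2.56-fold higher. The test passed for 2 of the 10 members, 1 in each direction, against 11.6% of all 13457 genes tested (7.22% higher and 4.35% lower). A difference between bulk libraries cannot tell fewer cells expressing a gene from less RNA in each cell.

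Socs2, an inhibitor best known for damping STAT5 signalling from growth hormone and related receptors, had normalized counts of 100.2, 170.2 and 298 in the 3 telogen libraries and 36.6, 16.1 and 48.4 in the 3 anagen libraries. Every telogen library lay above every anagen library, and the spread within telogen was wide. The means were 189 ± 100.4 in telogen and 33.7 ± 16.3 in anagen (SD, n = 3), a log2 fold change of -2.45 (SE 0.55, 95% confidence interval -3.66 to -1.24, limma adjusted p = 0.0165). It was also the one member past the study's own thresholds for this comparison (a log2 fold change beyond 2 and an unadjusted p under 0.05), which 5.1% of all genes passed. The call was lost without anagen 2 (log2 fold change -2.01, limma adjusted p = 0.0671) and without telogen 3 (-2.05, adjusted p = 0.0636), while the direction held in all 11 settings.

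Socs3, which binds gp130 and blocks the kinases on it, read 111, 88.5 and 80.6 in telogen and 253, 178 and 287 in anagen. The groups did not overlap, with the lowest anagen library well clear of the highest telogen library. The means were 93.3 ± 15.7 and 239 ± 55.7 (SD, n = 3), a log2 fold change of 1.33 (SE 0.35, 95% confidence interval 0.57 to 2.10, limma adjusted p = 0.0324). This call was the less stable of the pair. It was lost without anagen 1 (limma adjusted p = 0.138), anagen 2 (0.0642), anagen 3 (0.129), telogen 2 (0.0524) or telogen 3 (0.0684), and it held when telogen 1 was the library left out (0.0276), with log2 fold changes between 1.19 and 1.53.

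**Figure D1:**
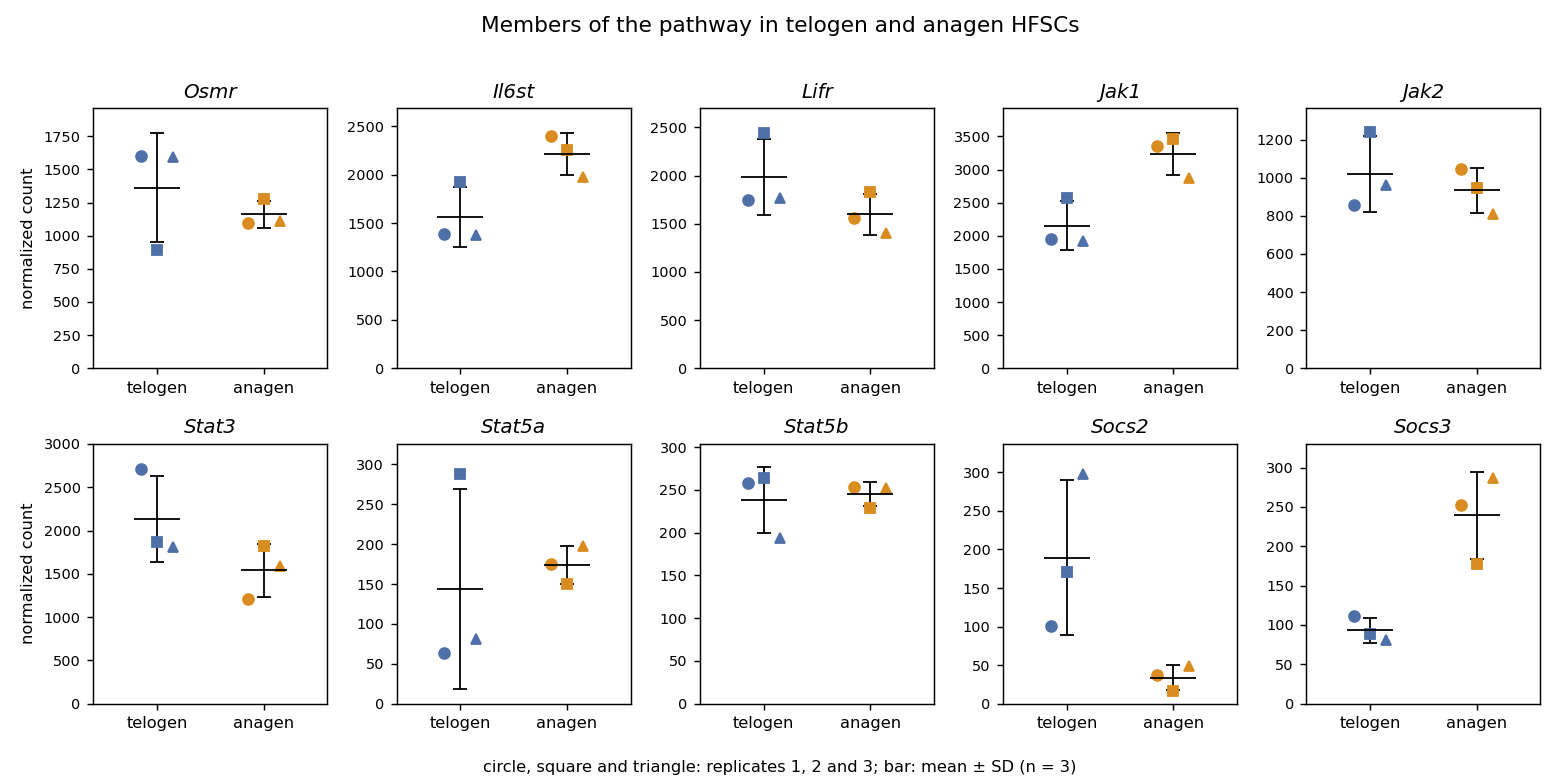
Normalized counts (y axis, from 0) of the 10 members in telogen (blue) and anagen (orange) HFSCs, with circle, square and triangle for replicates 1, 2 and 3 and the bar at the mean ± SD (n = 3). Socs2 sits at 189 on average in telogen and 33.7 in anagen with no overlap, and Socs3 shows the opposite order.

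Il6st, the shared gp130 chain, had 1389, 1923 and 1382 in telogen and 2402, 2255 and 1974 in anagen. All anagen libraries were above all telogen libraries, by little, and the test did not pass (log2 fold change 0.51, SE 0.20, 95% confidence interval 0.06 to 0.96, limma adjusted p = 0.131). Osmr, the chain specific to oncostatin M and interleukin 31 in the mouse, read 1601, 888 and 1595 in telogen and 1097, 1279.9 and 1111 in anagen. Here telogen 2 was the lowest of all 6 libraries and the other 2 telogen libraries the highest, so the groups overlapped (log2 fold change -0.18, 95% confidence interval -0.73 to 0.38, limma adjusted p = 0.686). Lifr, the chain for leukaemia inhibitory factor, ranged from 1407 to 2444 over the 6 libraries and did not differ beyond the spread (log2 fold change -0.30, limma adjusted p = 0.378).

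Jak1, the main kinase on gp130, had 1952, 2577 and 1920.4 in telogen and 3362, 3460.4 and 2874 in anagen. Each anagen library exceeded each telogen library, and the log2 fold change was 0.60 (SE 0.19, 95% confidence interval 0.17 to 1.02), but the limma adjusted p of 0.0702 missed the threshold. It passed without telogen 2, the highest of the telogen libraries (0.73, limma adjusted p = 0.0381). Jak2, which also serves the growth hormone and prolactin receptors, ranged from 809.7 to 1241 and its groups overlapped (log2 fold change -0.12, limma adjusted p = 0.771).

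Stat3, the chief STAT downstream of gp130, was 2705, 1873 and 1814 in telogen and 1212, 1819 and 1589.5 in anagen. The median was lower in anagen but anagen 2 reached above the lowest telogen library (log2 fold change -0.46, 95% confidence interval -0.97 to 0.04, limma adjusted p = 0.219). Stat5a had 63.1, 288 and 80.7 in telogen against 175, 150.1 and 197 in anagen. Telogen 2 stood far above the other telogen libraries and the anagen libraries fell between, which left a wide interval (log2 fold change 0.60, 95% confidence interval -0.55 to 1.74, limma adjusted p = 0.494). Stat5b ranged from 194 to 264 over the 6 libraries, with overlapping groups (log2 fold change 0.05, limma adjusted p = 0.928).

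Counted without adjustment, 4 of the 10 members (Il6st, Jak1, Socs2 and Socs3) had p under 0.05, against 27.3% of all genes. The same 4 had groups that did not overlap, against 33.3% of all genes. The median log2 fold change of the 10 members was -0.03, beside 0.013 over all genes tested. With 10 members, these counts are given as a description.

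**Figure D2:**
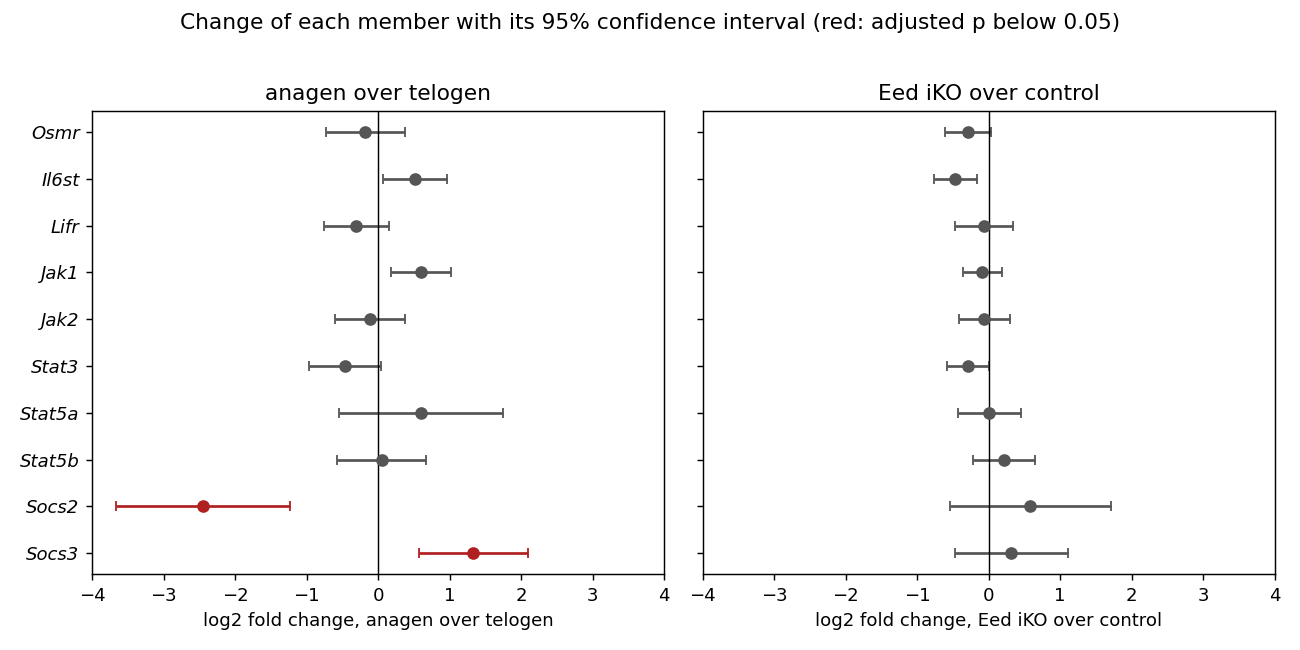
Log2 fold change (x axis) of the 10 members in anagen over telogen (left) and Eed iKO over control (right), with points for the limma estimate and bars for the 95% confidence interval. Red marks an adjusted p below 0.05, which Socs2 (-2.45) and Socs3 (1.33) reached on the left and no member reached on the right.

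Levels between members were set side by side per kilobase of exon. In telogen, Jak1 led with 297 ± 51.3 normalized counts per kilobase, and Stat3, Jak2, Lifr, Il6st and Osmr followed down to 112 ± 33.8, each overlapping the next. A gap then separated Osmr from Stat5b (43.1 ± 6.98), and Socs3, Stat5a and Socs2 closed the order at 32.3 ± 5.42, 20.2 ± 17.6 and 19.9 ± 10.5. In anagen, Jak1 stood clear of all others at 447 ± 43.4, while Il6st, Jak2, Stat3 and Lifr overlapped between 199 and 148. Osmr (96.0 ± 8.39) and Socs3 (82.7 ± 19.3) overlapped below them, and Stat5b, Stat5a and Socs2 ended the order with no overlap between neighbours, Socs2 at 3.54 ± 1.71. The order depends on the length used. With the longest protein-coding transcript of each gene, Osmr rose to the third place in telogen (248) and Socs3 fell below Socs2 there (36.6 against 85.3), while Jak1 stayed the highest in both phases.

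The ligands of the list were mostly below the filter in the sorted HFSCs. Osm, Il6 and Il31 were listed at 0 in all 6 hair cycle libraries, and 4 of the 10 genes in the list of gp130 cytokines, which also holds Il31, passed the filter. Lif read 70.8, 15.6 and 46.8 in telogen and 48.9, 14.3 and 25.0 in anagen (log2 fold change -0.51, limma adjusted p = 0.676). Ctf1, which encodes cardiotrophin 1, had 139, 72.6 and 62.7 in telogen and 62.6, 68.9 and 149.9 in anagen. Clcf1, which encodes cardiotrophin-like cytokine factor 1, had 107, 52.9 and 63.5 in telogen and 76.2, 164 and 101 in anagen. The groups overlapped for both (limma adjusted p = 0.991 and 0.432). No gp130 cytokine passed the test in either direction.

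Of the 76 genes of the pathway lists, 56 passed the filter and 10 of those (17.9%) were called, 6 higher and 4 lower in anagen, beside the 11.6% of all genes. The median log2 fold change of the 56 was -0.15. The lists were chosen with earlier results of these data known, so these shares are a description. The genes that were lower in anagen were receptors, a STAT and a phosphatase, and those that were higher were target genes and 1 receptor.

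Il31ra, which pairs with OSMR to form the receptor of interleukin 31, fell in anagen. It had 7050.1, 9577 and 12219.9 in telogen and 2336, 2664 and 2646 in anagen, with the anagen libraries close together and far below telogen. The mean dropped from 9616 ± 2585 to 2549 ± 184 (SD, n = 3), 3.77-fold lower in anagen (log2 fold change -1.88, SE 0.21, limma adjusted p = 3.47e-04). All 5 measured members of the gp130 receptor list had a negative log2 fold change, and Il31ra was the 1 that passed. Il6ra, the interleukin 6 receptor chain, read 165, 59.3 and 100.4 in telogen and 94.9, 69.3 and 43.5 in anagen, which overlapped (limma adjusted p = 0.481).

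Among 14 measured receptors of other JAK-coupled cytokines, 1 rose and 1 fell. Il13ra1, a receptor chain for interleukin 4 and interleukin 13, had 973, 1634 and 1597 in telogen and 2383, 2722 and 2724 in anagen (log2 fold change 0.93, limma adjusted p = 0.0252). Il15ra, the interleukin 15 chain, went the other way, from 282, 109 and 189.8 to 43.0, 69.7 and 41.1 (log2 fold change -1.83, limma adjusted p = 0.0269). Prlr, the prolactin receptor, read 7079, 6858 and 6922 in telogen and 3048, 7068 and 4119.8 in anagen. Anagen 2 lay with telogen and the other anagen libraries below it (log2 fold change -0.64, limma adjusted p = 0.148), and without anagen 2 the gene passed (-0.97, adjusted p = 0.0368).

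All 5 measured genes of the other kinases and STATs had negative log2 fold changes, and Stat6 passed. Stat6, the STAT of interleukin 4 and interleukin 13, had 912, 767 and 547 in telogen and 323, 309 and 378 in anagen, with no overlap (log2 fold change -1.11, limma adjusted p = 0.0204). Tyk2 (226, 188 and 315 in telogen, 132, 139.7 and 172 in anagen) and Jak3 (19.7, 50.4 and 89.8 in telogen, 29.6, 26.6 and 12.4 in anagen) did not pass (limma adjusted p = 0.2 and 0.345).

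Among 14 measured negative regulators, Ptpn6 (SHP-1), a phosphatase that removes phosphate from JAKs and receptors, was the 1 called, at 586, 384 and 339 in telogen and 192, 152 and 119 in anagen (log2 fold change -1.48, limma adjusted p = 0.0145). Cish, the inhibitor most closely tied to STAT5, ranged widely, with 38.1, 517 and 239 in telogen and 59.9, 195 and 92.9 in anagen (log2 fold change -0.71, limma adjusted p = 0.605). Telogen 2 was the highest library for Cish, as it was for Stat5a, and it also stood apart for Il22ra1, an epithelial receptor chain for interleukin 22 (163, 1363 and 187 over the 3 telogen libraries). Socs1 did not pass the filter and read at most 20.0 in any library.

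Of the 14 measured STAT target genes 5 rose in anagen (Hif1a, Pim1, Irf1, Fos and Ccnd1) and none was called lower, beside the 7.22% of all genes called higher. The median log2 fold change was 0.78, beside 0.013 over all genes. The list was chosen with earlier results of these data known, so its counts and median are a description. Hif1a, a transcription factor of the hypoxia response, rose from 1411, 2096 and 2198 in telogen to 6345, 7270.2 and 7248 in anagen (log2 fold change 1.89, SE 0.21, limma adjusted p = 2.54e-04). Fos, an immediate early gene, read 3092, 3792 and 1826 in telogen and 9087, 9913 and 7691 in anagen (log2 fold change 1.67, limma adjusted p = 0.00233). Both are also induced by signals outside the JAK-STAT pathway. Pim1, a survival kinase, had 53.6, 26.4 and 41.6 in telogen and 139.6, 199 and 104 in anagen (log2 fold change 1.84, limma adjusted p = 0.026). Irf1, an interferon-response factor, had 80.8, 114 and 51.3 in telogen and 294, 252 and 227 in anagen (log2 fold change 1.70, limma adjusted p = 0.0161). Neither gene's groups overlapped. Ccnd1, cyclin D1, rose from 1020.0, 1862 and 1026 to 4497, 3557 and 3260.3 beside the rise of Mki67 (log2 fold change 1.58, limma adjusted p = 0.00312). Bcl6, a transcriptional repressor gene, had the opposite order, with 4125, 2419.6 and 2128 in telogen and 1360.2, 1656 and 1664 in anagen. Its groups did not overlap and it missed the threshold (log2 fold change -0.83, limma adjusted p = 0.0547). The part of cell cycling in these values was not tested.

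The calls of Il31ra, Hif1a, Fos and Ccnd1 held with each library left out in turn. Those of the other 6 did not. Il13ra1, Stat6 and Irf1 were lost without anagen 1 (limma adjusted p = 0.0784, 0.0893 and 0.0905), anagen 2 (0.104, 0.093 and 0.0718) or anagen 3 (0.0931, 0.0511 and 0.0515). Pim1 was lost without anagen 1, 2 or 3 or telogen 2 (adjusted p = 0.101, 0.135, 0.0503 and 0.0506), and Ptpn6 without anagen 2 or 3 (0.0592 and 0.0629). Il15ra held with telogen 2 left out (adjusted p = 0.0155) and was lost in the other cases, at 0.1, 0.0507 and 0.0886 without anagen 1, 2 and 3 and at 0.0726 and 0.067 without telogen 1 and 3.

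**Figure D3:**
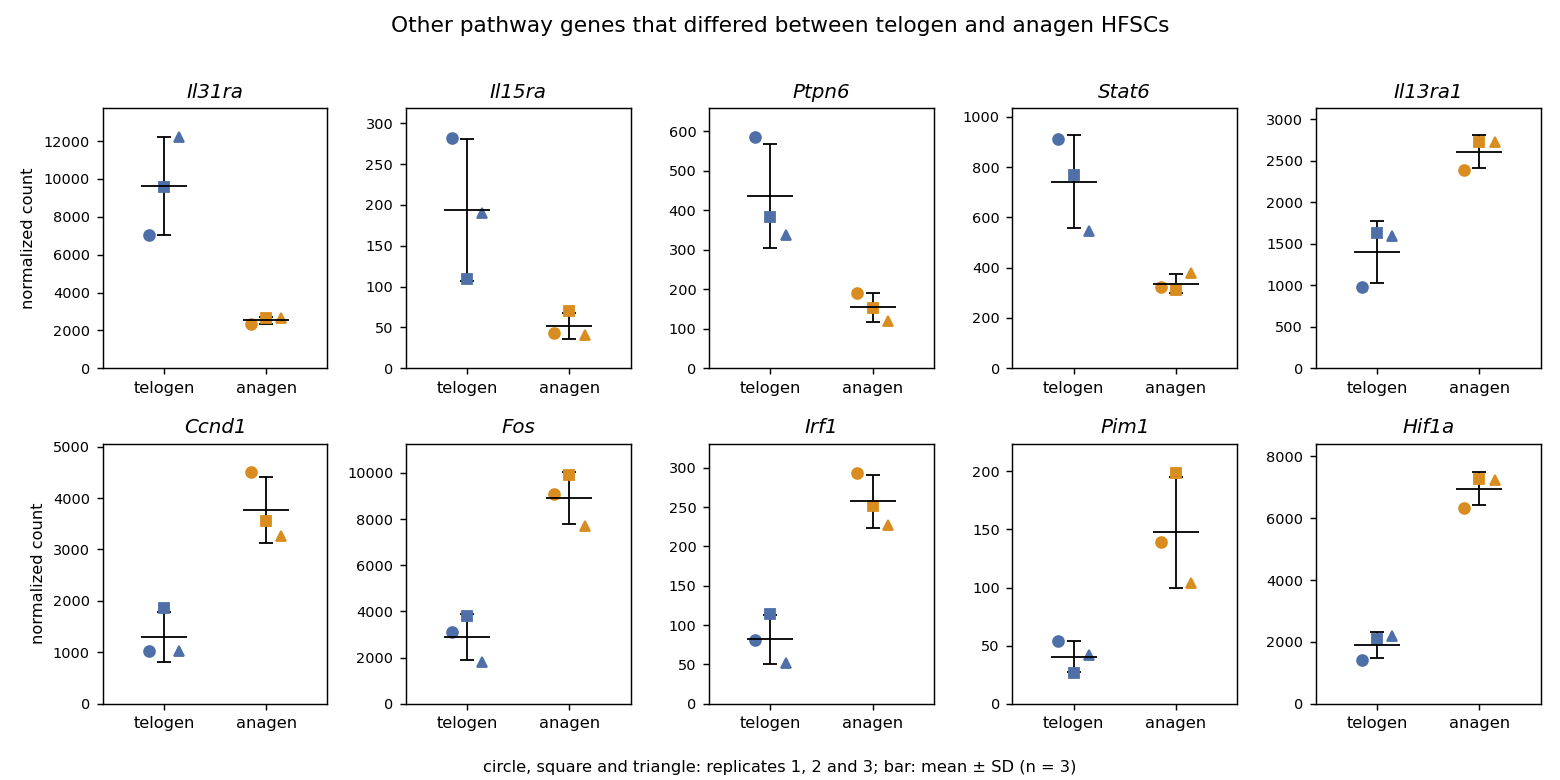
Normalized counts (y axis, from 0) of the 10 pathway genes called between telogen (blue) and anagen (orange), ordered by log2 fold change, with circle, square and triangle for replicates 1, 2 and 3 and the bar at the mean ± SD (n = 3). The first 4 genes, led by Il31ra, lie lower in anagen and the last 6, ending with Hif1a, lie higher, and no pair of groups overlaps.

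Markers of other cell types were read beside these results. The summed normalized counts of the 10 macrophage markers were 89.1 to 108 in anagen and 138 to 178 in telogen, with Adgre1 and Fcgr1 listed at 0 in all 6 libraries and none of the 3 markers that passed the filter called. Sums of the 10 Langerhans cell and T cell markers were 139 to 255 and 190 to 442, and H2-Aa was highest in telogen 2. Melanocyte markers summed to 1411 to 1495 in anagen and 2909 to 3285 in telogen, which followed Mitf, while Dct rose in anagen and Sox10 was listed at 0. Dermal fibroblast markers (608 to 700 and 356 to 797) held 2 genes called higher in anagen, Col1a1 and Dcn, and endothelial markers (149 to 177 and 85.3 to 150) held 1, Tek, with Cdh5 listed at 0. Suprabasal markers summed to 10209 to 18367 in anagen and 12341 to 20342 in telogen, with Flg called higher. The part of these cells in the results was not tested.

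Between the libraries labelled Eed iKO and the controls, none of the 10 members passed the test, against 4 of 15008 genes (0.0267%) in the whole table. Il6st and Stat3 were lower in every library labelled Eed iKO than in every control, without passing the test, and the other 8 members overlapped. At an unadjusted p under 0.05 there was 1 member, against 14.7% of all genes. No member passed the study's thresholds for this comparison (a log2 fold change beyond 1.5 with an unadjusted p under 0.05), which 1.75% of all genes did. With edgeR on the recovered reads the count of members called was also 0, and with DESeq2 it was 1, Il6st, where 5.31% of the 12646 genes with an adjusted p were called.

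Il6st read 7720.4, 7919 and 9442 normalized counts in the controls and 6090.2, 6313 and 5678 in the libraries labelled Eed iKO. Every Eed iKO library lay below every control, at means of 6027 ± 322 and 8360.5 ± 942 (SD, n = 3). The log2 fold change was -0.47 (SE 0.14, 95% confidence interval -0.77 to -0.17), with a limma adjusted p of 0.156 and a DESeq2 adjusted p of 0.0487, and over all alternatives the adjusted p ran from 0.0487 to 0.482. Osmr had 7436, 5979 and 6579 in the controls and 5288, 6154 and 4957 in Eed iKO, with Eed iKO 2 inside the control range (log2 fold change -0.29, 95% confidence interval -0.61 to 0.04, limma adjusted p = 0.39). Lifr was 8456, 8319 and 7624 against 9266, 8911 and 5742, where Eed iKO 3 was the lowest and the other Eed iKO libraries the highest (log2 fold change -0.06, limma adjusted p = 0.913).

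The kinases varied little. Jak1 was 8152, 8788 and 9012 in the controls and 8044, 7989 and 8282 in Eed iKO (log2 fold change -0.09, 95% confidence interval -0.36 to 0.18, limma adjusted p = 0.772), and Jak2 ranged from 2792 to 3779.7 over the 6 libraries (log2 fold change -0.06, 95% confidence interval -0.41 to 0.29). The Jak1 interval leaves out a fall of more than 0.36 or a rise of more than 0.18 on the log2 scale.

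Stat3 had 11026, 13475 and 12641 in the controls and 9568, 10068 and 10634 in Eed iKO, again with every Eed iKO library below every control (log2 fold change -0.29, SE 0.13, unadjusted p = 0.0508, limma adjusted p = 0.342). Non-overlap was thus found for 2 of the 10 members, Il6st and Stat3, beside 20.2% of all genes in this table. Stat5a stood at 1080.2, 1081 and 1142 in the controls against 909, 1185 and 1262 in Eed iKO, with overlapping groups (log2 fold change 0.01, limma adjusted p = 0.988). Stat5b was 990.0, 1242 and 950.2 in the controls against 1234, 1349 and 1098 in Eed iKO (log2 fold change 0.22, limma adjusted p = 0.652).

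Socs2 read 173, 113 and 102 in the controls and 214, 96.9 and 324 in Eed iKO. Eed iKO 2 was below all controls and the other Eed iKO libraries above them, which left the interval wide (0.58, 95% confidence interval -0.54 to 1.70, limma adjusted p = 0.631). Socs3 had 3058, 3818 and 7615 in the controls and 4099.9, 4471 and 9298 in Eed iKO. Replicate 3 was the highest of its group in both, by more than the groups differed (log2 fold change 0.31, 95% confidence interval -0.48 to 1.10, limma adjusted p = 0.735). The immediate early genes Fos (75797, 74098 and 127802 in the controls, 100816, 122763 and 187351 in Eed iKO) and Junb (9068, 7566 and 17818 in the controls, 6650.4, 8406 and 16622 in Eed iKO) were also highest in replicate 3 of each group. Their part in the Socs3 values was not tested.

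**Figure D4:**
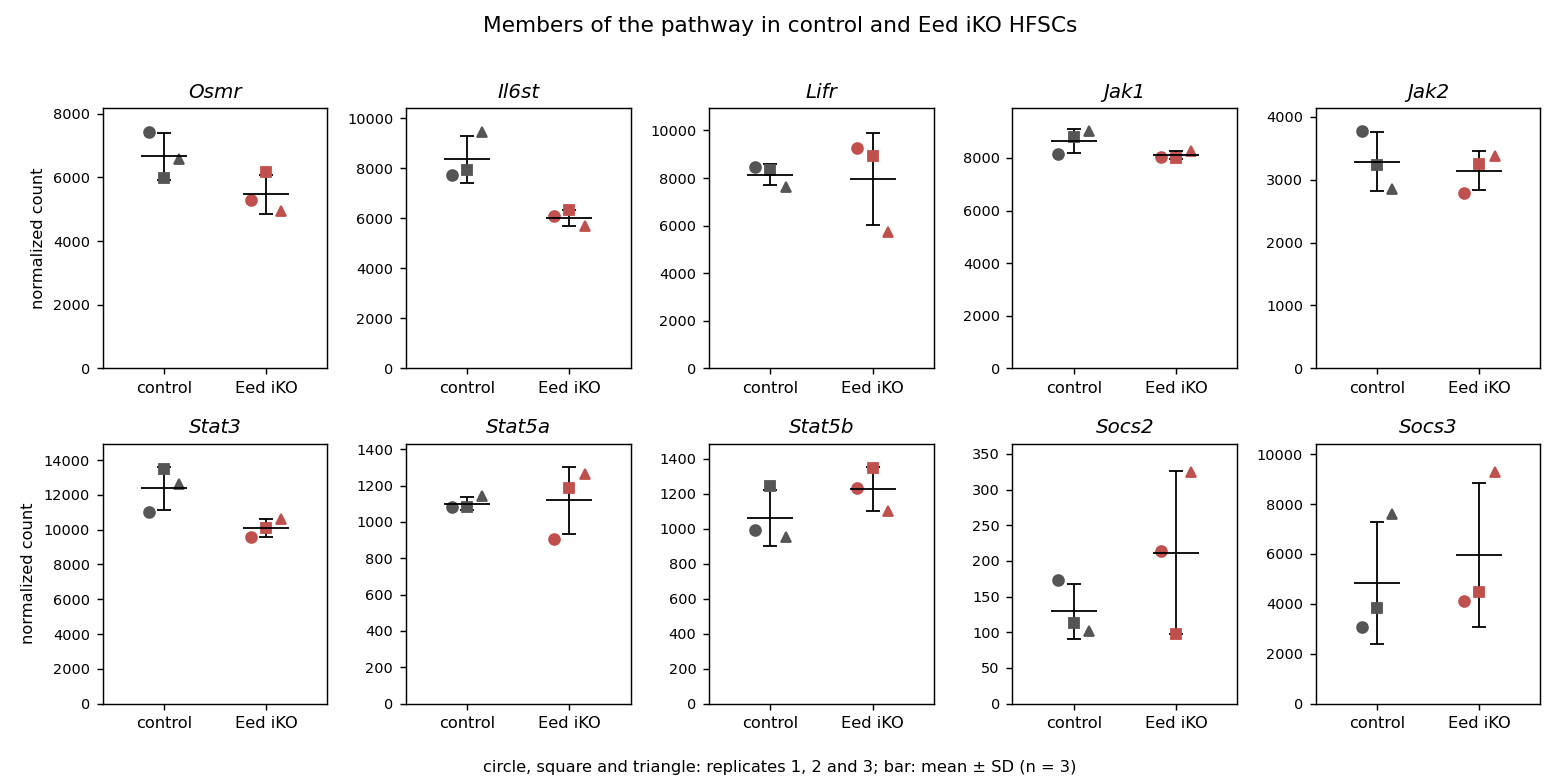
Normalized counts (y axis, from 0) of the 10 members in control (grey) and Eed iKO (red) HFSCs, with circle, square and triangle for replicates 1, 2 and 3 and the bar at the mean ± SD (n = 3). Il6st (8360.5 and 6027 on average) and Stat3 are the 2 members whose groups do not overlap, and the triangles of Socs3 stand above both other replicates in each group.

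Per kilobase of exon, Socs3 was the highest of the 10 members in this table, at 1671 ± 845 in the controls and 2060.3 ± 1003 in Eed iKO (SD, n = 3). In the controls it overlapped Stat3 (1299.5 ± 131) and Stat3 overlapped Jak1 (1197 ± 61.7), below which Lifr, Il6st, Jak2 and Osmr overlapped between 755 and 550. Stat5b, Stat5a and Socs2 ended the order without overlap, at 192 ± 28.6, 154 ± 4.93 and 13.6 ± 4.06. With the longest protein-coding transcript as the length, Stat3 came before Socs3 in the controls (2049 against 1893) and Stat5a before Stat5b.

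Among the ligands, Osm had 0 reads in 5 of the 6 libraries, which allows up to 3 reads in each and covers counting error only, and 2 reads in Eed iKO 1. Il6 had 0 reads except in Eed iKO 3, where it stood at 14.8 normalized counts. Lif was 93.7, 85.6 and 24.5 in the controls and 39.8, 109 and 106 in Eed iKO, with no difference beyond the spread (limma adjusted p = 0.829). Clcf1 and Ctf1 were present in every library. Clcf1 read 368, 633 and 1259 in the controls and 312, 313 and 514 in Eed iKO, and Ctf1 read 616, 262 and 260.2 in the controls and 266, 578 and 407 in Eed iKO, with overlapping groups for both (limma adjusted p = 0.377 and 0.871).

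Of the 76 pathway genes, 74 were in the table, 64 passed the filter and none was called by limma. An unadjusted p under 0.05 was found for 10 of the 64, 8 higher and 2 lower, against 14.7% of all genes. The split by direction was not counted over all genes, so it is a description. The median log2 fold change was 0.02, beside -0.0011 over all genes. DESeq2 called 2, among them the STAT3 target Cebpd, and edgeR called 0. Stat6 (4102, 3496 and 3899 in the controls, 2579.5, 3433 and 3124 in Eed iKO) and Tyk2 (1069.8, 1509 and 1618 in the controls, 859, 999 and 1337 in Eed iKO) did not pass (limma adjusted p = 0.351 and 0.457), nor did Jak3 (477, 476 and 855 in the controls, 459, 371 and 526 in Eed iKO, adjusted p = 0.611).

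Among the receptors, Il31ra and Prlr did not differ beyond the spread. Il31ra had 52592, 54237 and 60791 in the controls and 54596, 48771 and 61117 in Eed iKO (log2 fold change -0.03, 95% confidence interval -0.36 to 0.30, limma adjusted p = 0.945), and Prlr ranged from 22895 to 31136 (limma adjusted p = 0.489). Il6ra ran from 193 to 1006 with overlapping groups. Cish read 2292, 1251 and 3694 in the controls and 1252, 543 and 3366 in Eed iKO, with replicate 3 again the highest in both groups and replicate 2 the lowest (log2 fold change -0.74, limma adjusted p = 0.578). Socs1 was at 23.6, 28.2 and 37.2 in the controls against 58.1, 18.6 and 85.0 in Eed iKO (limma adjusted p = 0.737).

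**Figure D5:**
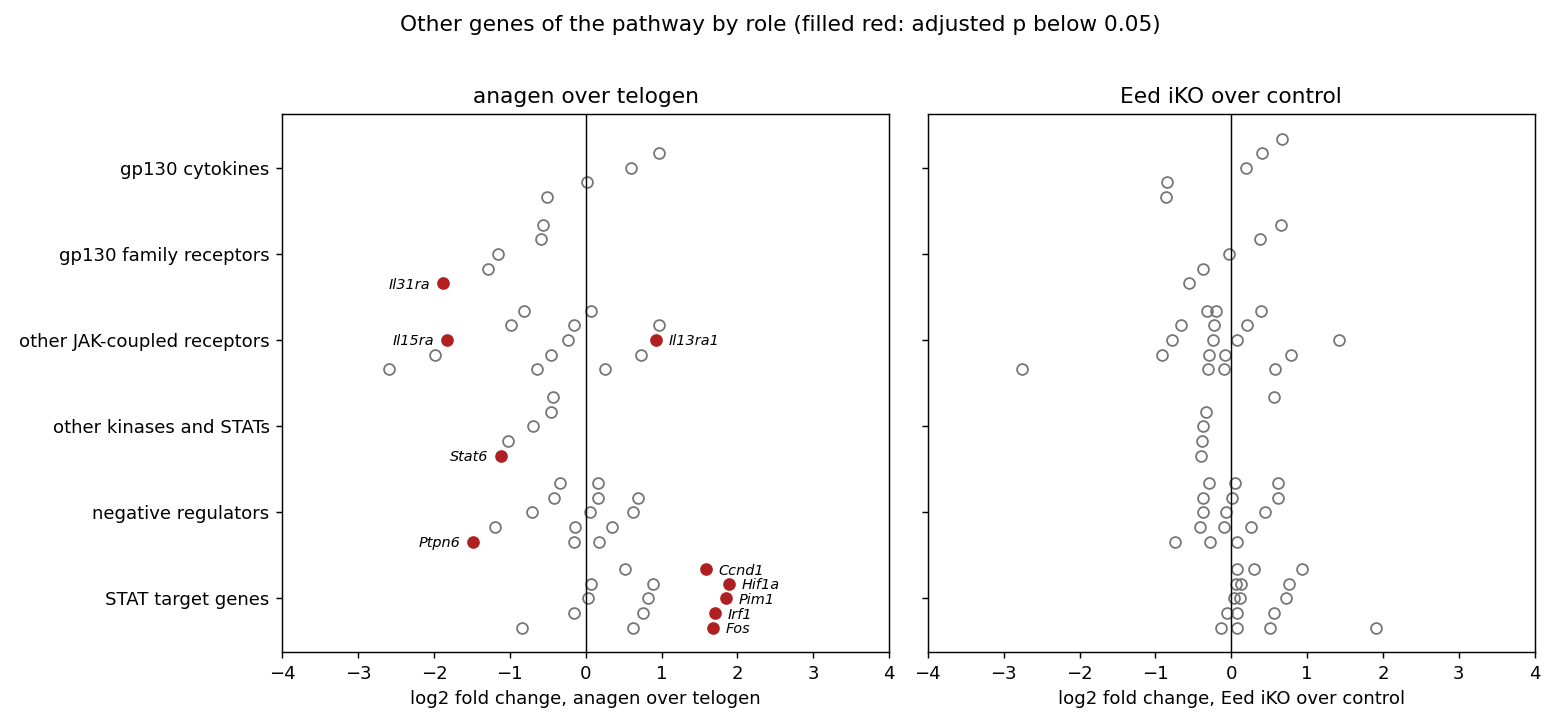
Log2 fold change (x axis) of the measured pathway genes by role (y axis) in anagen over telogen (left, 56 genes) and Eed iKO over control (right, 64 genes), with 1 circle per gene and vertical offsets for legibility only. Filled red circles passed an adjusted p of 0.05, 10 on the left and none on the right. Of those on the left, 5 were STAT target genes, at log2 fold changes of 1.58 to 1.89.

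Marker lists in this table held no gene called by limma. The summed macrophage markers were 466 to 1044 in the controls and 473 to 882 in Eed iKO. The suprabasal markers summed to 22754 to 62138 and 22844 to 87206. Krt1 (2138, 1802 and 11927 in the controls, 1988, 772 and 11058 in Eed iKO) was highest in replicate 3 and lowest in replicate 2 of both groups. Krt10 had the same order (7484, 5443 and 26841 in the controls, 10738, 3429 and 45520 in Eed iKO). Ivl, Lor and Flg were not highest in replicate 3 of the controls. The sums of the remaining lists overlapped between groups as well, but single markers did not all overlap. Groups were apart for 53.8% of the measured bulge markers (4 higher and 3 lower in Eed iKO) and 50% of macrophage markers (1 and 2). For Langerhans cell and T cell markers it was 42.9% (2 higher and 1 lower), beside 20.2% of all genes. In each of the other lists the share was 20% or less. The part of these cells in the values above was not tested.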

How the data were processed

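RNA from sorted HFSCs was amplified with a kit that does not mark strand (Ovation RNA-seq System V2). The authors assigned reads to mouse GENCODE transcripts (vM20, GRCm38) with Kallisto (v0.42.5), kept protein-coding genes and deposited DESeq2-normalized counts, a signal per gene and library on the scale of each table. In the P70 table every value could be divided by the smallest step of its library without remainder, which gave the reads per gene. The hair cycle table has no such step, so its depth is unknown. The deposited fold changes and p-values of the authors' own comparisons were not used.

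Members were matched by symbol in each table. Values were tested as log2(normalized count + 1) with limma (3.58.1, trended, R 4.3.3) after a filter at a minimum of 10 (filterByExpr, edgeR 4.0.16), on the 6 libraries of each table, Eed iKO over control and anagen over telogen, with Benjamini-Hochberg adjustment over all genes tested and a threshold of 0.05. Fold changes on this scale understate the change of low genes. DESeq2 (1.42.0) and edgeR were run on the recovered reads. Other alternatives were a pseudocount of 0.1, no filter, TMM factors, no intensity trend, a replicate block and each library left out. Levels per kilobase used the summed exon bases of GENCODE vM21 (GRCm38), which matched 17879 of 17885 and 21915 of 21915 gene IDs. Promoter windows came from RefSeq (GRCm38.p6) and held 9 of the 10 members. The scripts were tested on simulated data.

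The members and lists were chosen with earlier results of these data known. Genes named were the 10 members, every pathway gene called (up to 4 by size per list, with Ccnd1 named beyond it), a fixed set of ligands, receptors, kinases, STATs and inhibitors, and Mki67 and Eed. Il22ra1, Ctf1, Clcf1, Bcl6, Junb, Cebpd and the marker genes were named after their values were seen. Some genes that these rules would name are not reported here.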

Additional observations from a re-analysis of the deposited data

How the results depend on the processing

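The direction of Socs2 and Socs3 between hair cycle phases held under all alternatives, Socs2 with a log2 fold change of -2.84 to -2.01 over the left-out libraries (adjusted p 0.0104 to 0.0671, called in 9 of 11 settings) and Socs3 with 1.19 to 1.53 (0.0276 to 0.138, called in 5 of 11). Leaving out 1 library, so that fewer libraries enter each such fit, gave 0 to 2 members, 5 to 10 pathway genes and 590 to 1534 of all genes called in that comparison. There were 0 members called without anagen 2 or telogen 3, and 590 genes without anagen 1. For Eed iKO, leaving out 1 library gave 0 members, 0 pathway genes and 1 to 188 of all genes, 188 of them without Eed iKO 3. Without the intensity trend, 842 genes were called in the hair cycle and 2 for Eed iKO. DESeq2 on the recovered reads called 1 member, 2 pathway genes (8 had no adjusted p) and 672 genes for Eed iKO, and the cause was not tested. A fit with the replicate number as a block called 1 member in the hair cycle (the adjusted p of Socs3 became 0.0561) and, for Eed iKO, 2 pathway genes and 424 genes, against 4 without the block. The 2 pathway genes were Cebpd and Fos, both higher in Eed iKO (limma adjusted p = 0.0074 and 0.0325 with the block). The labels do not say that a number marks a shared animal or day. Same-numbered libraries had deviations with correlations of 0.039, 0.0684 and 0.193 for Eed iKO and control, where 4 of 6 libraries correlated best with their own number, a hint from the data that some share more than a number, and of -0.0711 to -0.0294 in the hair cycle, where 0 of 6 did. Not every pair was over 0.1, so the numbers were not taken as pairs. Directions that turned belonged to uncalled genes. Over the left-out libraries the Eed iKO log2 fold changes ran from -0.16 to 0.046 for Jak2, -0.085 to 0.15 for Stat5a, -0.18 to 0.16 for Lifr, -0.060 to 0.70 for Socs3, -0.21 to 0.87 for Lif, -0.99 to 0.013 for Il6ra and -0.17 to 0.10 for Eed, which was also 0.0023 with DESeq2 and 0.0046 with edgeR. In the hair cycle they ran from -0.23 to 0.032 for Jak2, -0.092 to 0.13 for Stat5b, -1.76 to 0.098 for Cish and -0.029 to 0.32 for Eed. Mki67 passed for Eed iKO without Eed iKO 3 (2.44, adjusted p = 0.0307). Without the trend, Il13ra1, Il15ra and Stat6 lost their hair cycle calls (adjusted p = 0.109, 0.0529 and 0.0669). The length used moved 25 of the 40 levels per kilobase by more than their SD. With 3 libraries a group, a gene that was not called may still differ by any amount inside its interval.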

Other observations

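Some genes stood at different places within the 2 tables, as percentiles of the mean normalized count among all genes of the same table (the tables hold different sets of genes and were normalized separately, so the percentiles are a description). Socs3 stood at the 89.8 percentile in the 70-day-old controls and at 58.0 in telogen. Both groups are labelled wildtype, but the controls were given the ethanol vehicle and the telogen mice were 50 to 52 days old. Of the immediate early genes, Junb stood at 96.7 and 68.1 while Fos was near the top in both (99.9 and 96.6), and Cebpd, a transcription factor gene that STAT3 is known to induce, at 77.8 and 57.1. Jak1 held the same place in both (95.1 and 94.9). Socs2 went the other way, at 36.7 in the controls and 66.5 in telogen.

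The genes whose log2 values followed a member most closely over the 6 libraries of a table are given as a description, since all genes tested were compared over 6 points that share libraries and groups. In the hair cycle table Socs3 was closest to Wnt10a (Pearson r = 0.998), a Wnt ligand, and Lbh (0.995), and 3.43% of all genes had r above 0.9 with it. Socs2 was closest to Vmn2r72 (0.997), Cacnb1 (0.995) and Mief1 (0.993), Osmr to Lrwd1 (0.996), Gm10644 (0.991) and Zfp969 (0.986), and Stat5a to Trim62 (0.986), Arhgap27 (0.985) and Dcakd (0.985). In the table of Eed iKO and control libraries Socs3 was closest to Izumo4 (0.998), Rccd1 (0.996) and Bicd2 (0.991), Socs2 to Tspan11 (0.982), Golga1 (0.979) and Zranb1 (0.975), Osmr to Scarb2 (0.991), Ube2g1 (0.987) and Zfp235 (0.987), and Stat5a to Olfr1238 (0.989), Mitd1 (0.987) and Zfp420 (0.981). No gene was among the closest 3 of a member in both tables.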
